A study of Mus musculus with 26 samples.

Results

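The 10 genes described here encode proteins known to take up, move, bind or act with phosphorothioate oligonucleotides. They are the nuclease gene Rnaseh1, the cell-surface receptor genes Lrp1, Scarb1, Stab1, Stab2 and Msr1, the endocytic adaptor gene Ap2m1, the trafficking genes Anxa2 and M6pr, and the nucleolin gene Ncl. They were chosen by name for these known roles, though with earlier results of these data known. They are 10 of the 37310 gene IDs in the count tables. All 10 matched a gene ID and all are protein coding. Polyadenylated RNA had been sequenced from organoids and tumors of C57BL/6 mice with the MMTV-PyMT transgene, in which a viral promoter active in mammary epithelium drives a polyoma virus oncogene. That transgene and strain were shared by every group, so no normal mammary gland enters any comparison, and the sources used here give no ages. Organoids, which are pieces of tumor epithelium grown in Matrigel with FGF2, received 500 nM of Malat1 ASO1, of Malat1 ASO2 or of the control oligonucleotide scASO for 6 days, renewed on day 3, or were labelled Mock (4 libraries each). Mock libraries carry no oligonucleotide in their labels, and what their medium received is not stated. Tumors came from mice given 125 mg/kg per week subcutaneously, for several weeks, of Malat1 ASO1 (3 libraries), Malat1 ASO2 (4 libraries) or scASO (3 libraries). Every tumor had therefore received an oligonucleotide.

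An antisense oligonucleotide pairs with its target RNA in the cell, and RNase H1 cuts the RNA strand of such a hybrid of RNA and DNA. The oligonucleotide first has to be bound at the cell surface, taken up by endocytosis and released from endosomes. Stabilins and other scavenger receptors are known for this uptake in liver endothelium and macrophages, and much less is known of mammary epithelium.

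Reads assigned to genes numbered 23973533 to 65146030 per organoid library and 9939520 to 51363552 per tumor library. Malat1, the targeted RNA, was checked first, in CPM, the read count per unit of library size, with sizes scaled by edgeR's TMM method over all 26 libraries. It was at 87.0 to 186 CPM in ASO1 organoids, at 219, 95.6 and 307 CPM in ASO2 organoids 2, 3 and 4, at 836, 781 and 1191 CPM in scASO organoids 1, 3 and 4, and at 713 to 1578 CPM in Mock organoids. The library labelled ASO2 organoid 1, at 1485 CPM, and the library labelled scASO organoid 2, at 118.7 CPM, went against their labels. In tumors Malat1 was at 381 to 913 CPM with ASO1 or ASO2, against 847 to 1913 CPM with scASO, and the ranges overlapped. Organoid libraries of the same number deviated together across treatments, and their number was therefore also fitted as a block, which compares libraries within a number. Both libraries that went against their labels were kept in their labelled treatment and number, and their number may be in doubt as well. Tumor libraries of the same number did not. Whether libraries of a group came from separate mice or cultures is not stated, so the p-values measure only how these libraries vary, which could be technical variation.

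Promoters are shown for 3 of the members whose genes carry the differences described next. Lrp1 was the only member called between oligonucleotide and Mock organoids, and only with organoid number as a block. Stab1 was lower and Anxa2 higher in organoids than in tumors. Each sequence runs 5′ to 3′ along the gene's strand from 250 bases before to 50 bases after the start in RefSeq on GRCm38.p6. They are chr10:127621099-127621398 on the minus strand for Lrp1, chr14:31168592-31168891 on the minus strand for Stab1 and chr9:69453433-69453732 on the plus strand for Anxa2. RefSeq's table held 6 of the 10 members, and Scarb1 and Msr1 were not among them. Their estimated differences between organoids and tumors were larger than those of Stab1 and Anxa2. Capitals mark matches, on either strand, to 3 motifs: the GC box GGGCGG, which reads as CCGCCC on the other strand, the TATA box TATAAA and GAGGAA, the core bound by the ETS factor PU.1.
Lrp1: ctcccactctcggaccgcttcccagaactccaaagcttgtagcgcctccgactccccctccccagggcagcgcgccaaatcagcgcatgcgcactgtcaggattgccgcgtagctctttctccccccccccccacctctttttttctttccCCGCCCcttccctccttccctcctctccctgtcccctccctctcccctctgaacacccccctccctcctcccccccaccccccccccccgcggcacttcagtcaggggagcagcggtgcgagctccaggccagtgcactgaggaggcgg
Stab1: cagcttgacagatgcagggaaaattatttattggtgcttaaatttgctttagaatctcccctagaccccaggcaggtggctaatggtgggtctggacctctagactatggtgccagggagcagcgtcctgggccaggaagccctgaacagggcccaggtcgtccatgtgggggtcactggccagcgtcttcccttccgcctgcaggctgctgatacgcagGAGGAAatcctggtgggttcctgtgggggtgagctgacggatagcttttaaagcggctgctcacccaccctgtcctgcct
Anxa2: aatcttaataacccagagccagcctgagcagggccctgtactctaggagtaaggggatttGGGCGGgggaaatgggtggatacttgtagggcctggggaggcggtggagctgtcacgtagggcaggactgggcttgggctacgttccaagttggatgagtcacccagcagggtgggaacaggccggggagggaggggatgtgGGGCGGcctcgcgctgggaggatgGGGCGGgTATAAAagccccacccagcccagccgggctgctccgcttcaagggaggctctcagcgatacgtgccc
The Lrp1 promoter held 1 GC box match and no TATAAA or GAGGAA. The Stab1 promoter held 1 GAGGAA and neither other motif, and the Anxa2 promoter held 3 GC box matches and 1 TATAAA. Among 32841 promoters of the same length, 35.7% held GGGCGG, 13.6% held TATAAA and 28.3% held GAGGAA. The GC content was 67.7% for Lrp1, 57.3% for Stab1 and 63.7% for Anxa2, against a median of 52.7% over all promoters. A match of letters is a description of the sequence and was not tested as a binding site.

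To order the genes by level, CPM was divided by the length of each gene's merged exons in kilobases. Lengths are from the GENCODE M21 annotation, while the submitters' notes name the mm9 build, so the exons counted may differ. Merged exons came to 10188 bases for Ncl and 8500 for Scarb1, against 8202 and 3093 bases for the longest transcript. In organoids Anxa2 had the highest median, at 243 CPM per kb, followed by Ncl at 81.0 and M6pr at 59.9 CPM per kb, and the ranges of these 3 genes over the 16 organoids did not overlap. Scarb1, Ap2m1 and Lrp1 came next, at medians of 22.35, 20.35 and 18.9 CPM per kb, with ranges that overlapped each next gene. Rnaseh1 was at 6.305 CPM per kb in organoids, separate from Stab1 at 0.832 CPM per kb. Msr1 was at 0.199 and Stab2 at 0.0246 CPM per kb. Stab1, Msr1 and Stab2 were thus the lowest of the 10 genes in organoids. In tumors Anxa2, Ncl and M6pr were again highest, at medians of 148.6, 70.2 and 63.25 CPM per kb, but the ranges of Anxa2 and Ncl overlapped, as did those of Ncl and M6pr. Ap2m1 followed at 18.1 CPM per kb. Rnaseh1 at 8.16, Lrp1 at 5.83, Scarb1 at 5.77 and Stab1 at 3.32 CPM per kb overlapped each next gene over the 10 tumors, except that Stab1 lay above Msr1 at 0.8999 CPM per kb. Stab2 was at 0.0232 CPM per kb in tumors. The order of near neighbours depended on the length used. With the longest transcript, the organoid ranges of Ncl and M6pr overlapped, as did those of M6pr and Scarb1, whose median was then 61.4 CPM per kb. In tumors M6pr then lay above Ncl, at 88.6 and 87.2 CPM per kb, and Scarb1 above Rnaseh1, at 15.9 and 10.7 CPM per kb.

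**Figure D1:**
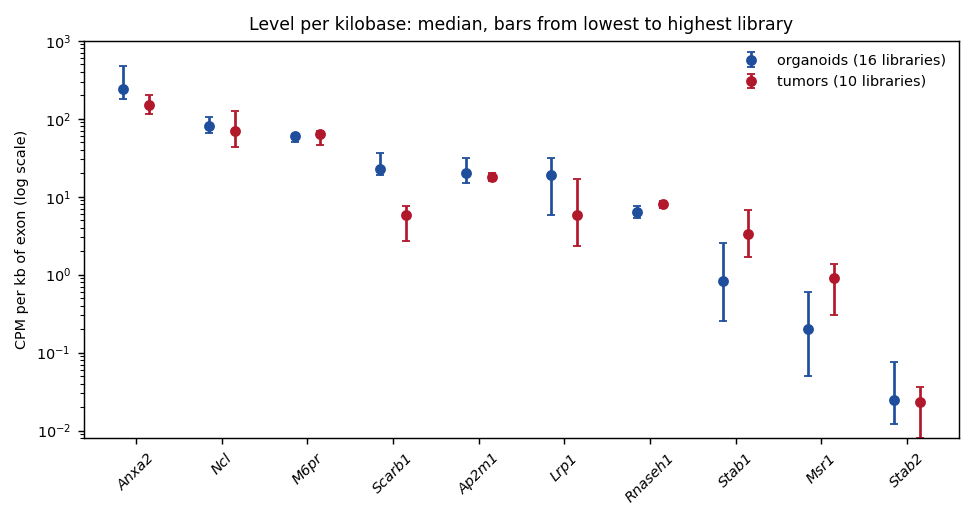
Level of each of the 10 genes per kilobase of merged exons, on a log axis, in organoids and in tumors; points are medians and bars run from the lowest to the highest library. Anxa2, Ncl and M6pr are highest in both, and Stab2 is lowest in both, with a tumor bar that reaches the axis end because 1 tumor is at 0.

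Among the 10 genes, the largest differences between organoids and tumors were in receptor genes. Scarb1, the receptor for high-density lipoprotein, and Lrp1, a large endocytic receptor for alpha-2-macroglobulin and apolipoprotein E, were higher in organoids. Stab1 and Msr1, scavenger receptors of macrophages and, for Stab1, of sinusoidal endothelium, were lower. Anxa2, the membrane-binding annexin known in human cells to help oligonucleotides leave endosomes, was higher in organoids, and Rnaseh1 was lower. The comparison is of ASO1, ASO2 and scASO organoids with tumors given the same 3 oligonucleotides, tested with edgeR (quasi-likelihood F-test, p-values adjusted over all genes by Benjamini and Hochberg). It called 6 of the 10 genes, 3 higher and 3 lower, where 58.3% of all 18695 genes tested were called (28.5% higher and 29.8% lower), so the share of members called was near that of all genes. With organoid and tumor numbers as blocks within each system, 8 of the 10 were called and 66.3% of all genes. Organoid culture, dose, route, time and any batch cannot be told apart in this comparison.

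Scarb1 (chr5:125277087-125341094, minus strand, GRCm38) was at 162.5 to 312.4 CPM in the 12 oligonucleotide organoids, with a median of 194.7 CPM, against 23.1 to 64.4 CPM, with a median of 49.0 CPM, in the 10 tumors. All organoids lay above all tumors, Mock organoids at 161.8 to 274 CPM included. The log2 fold change was 2.13 ± 0.17 (SE), a 4.38-fold higher level, with an adjusted p of 1.60e-09. Lrp1 (chr10:127538161-127621148, minus strand, 88 merged exons) was at 175.7 to 559.1 CPM, with a median of 387.5 CPM, in the oligonucleotide organoids, against 41.6 to 299 CPM, with a median of 103.3 CPM, in tumors. The groups overlapped through tumor ASO1 number 3, the highest tumor; no other tumor passed 123.1 CPM. Its log2 fold change was 1.70 ± 0.26, or 3.26-fold higher, with an adjusted p of 9.12e-06.

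Stab1 (chr14:31139013-31168641, minus strand) was at 6.13 to 25.9 CPM, with a median of 8.56 CPM, in oligonucleotide organoids, against 17.45 to 69.2 CPM, with a median of 34.2 CPM, in tumors. The ranges met only through the organoids of number 4, at 25.9, 24.75 and 18.6 CPM, and through the lowest tumor, ASO1 number 2. Stab1 fell by 1.70 ± 0.32 on the log2 scale, with an adjusted p of 0.000123. Msr1 (chr8:39581685-39642673, minus strand), the class A macrophage scavenger receptor, was at 0.317 to 3.56 CPM in oligonucleotide organoids, against 1.93 to 8.58 CPM in tumors, and fell by 1.90 ± 0.35 on the log2 scale, with an adjusted p of 0.000110. These low levels rest on few reads, 10 to 126 per oligonucleotide organoid. Stab2 (chr10:86841198-87008025, minus strand), the hyaluronan receptor of liver sinusoids and partner of Stab1 in oligonucleotide clearance, was nearly absent: 3 to 29 reads per oligonucleotide organoid, against 0 to 13 reads per tumor. That is 0.106 to 0.671 CPM in those organoids, against 0 to 0.315 CPM in tumors, and the 0 reads of tumor ASO2 number 4 allow up to 0.281 CPM, counting error only. Stab2 did not pass the test (log2 fold change 0.58 ± 0.35, adjusted p 0.153). With the blocks it did, at 1.87 ± 0.51 with an adjusted p of 0.00851, but the only tumor of number 4 in that fit is the library with 0 reads, so that value is no measure of size.

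Most markers of macrophages and of endothelium in general were lower in organoids, as Stab1 and Msr1 were. Of all 18695 genes tested, 28.5% were called higher in organoids and 29.8% lower. Of 12 macrophage markers tested, 10 were lower in organoids and 1, Cd14, was higher, with a median log2 fold change of -4.00. All 9 endothelial markers tested were lower, with a median of -2.87, while 6 of 6 mammary epithelial markers were higher, with a median of 0.89. Lymphatic and sinusoidal markers did not move together: of 5 tested, Pdpn was higher, at 1.72 ± 0.28, and Lyve1 lower, at -1.46 ± 0.46. Their summed CPM was 44.1 to 146 in oligonucleotide organoids, with a median of 111.2, against 18.1 to 143.8 in tumors, with a median of 40.6, and most of it was Pdpn, at medians of 94.9 CPM in those organoids and 23.4 CPM in tumors. The summed CPM of all 12 macrophage markers was 236.8 to 566 in oligonucleotide organoids and 480.6 to 1352 in tumors, with medians of 421.5 and 828.5. These ranges overlapped. The summed CPM of Ptprc, Csf1r and Adgre1, which define leukocytes and macrophages, was 2.85 to 21.9 in oligonucleotide organoids, against 42.9 to 181.6 in tumors, and none of the 3 was at 0. Their part in the Stab1 and Msr1 differences was not tested. In bulk RNA, fewer cells of a type and less RNA per cell cannot be told apart. Epcam, which defines epithelium, was at 1289 to 2971 CPM in organoids and 633 to 1178 CPM in tumors. The hepatocyte gene Alb was at 0 to 0.385 CPM in every library.

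**Figure D2:**
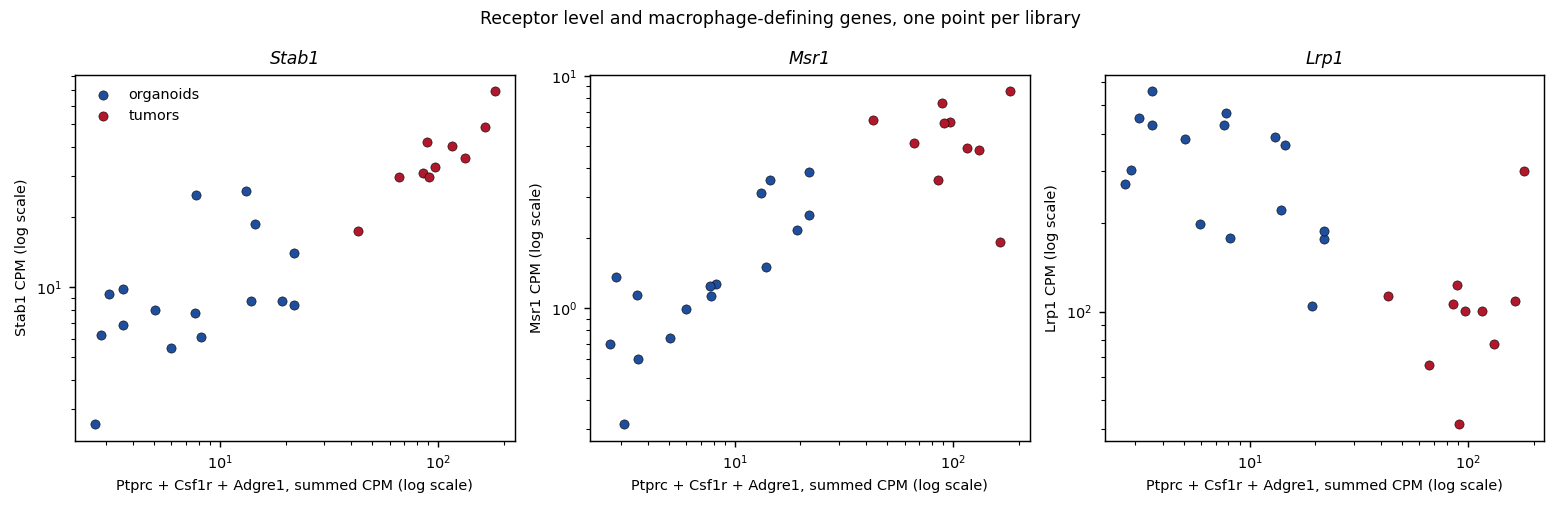
Stab1, Msr1 and Lrp1 in CPM (vertical, log axis) against the summed CPM of Ptprc, Csf1r and Adgre1 (horizontal, log axis) in each of the 26 libraries. Organoids, at sums of 2.68 to 21.9 CPM, are separate from tumors, at 42.9 to 181.6 CPM; Stab1 and Msr1 are mostly lower in organoids and Lrp1 mostly higher.

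The trafficking genes were among the most abundant members. Anxa2 (chr9:69453620-69491795, plus strand) was at 768 to 1782 CPM, with a median of 1012 CPM, in oligonucleotide organoids, against 428 to 748 CPM, with a median of 554.6 CPM, in tumors, and these did not overlap. Mock organoids, at 659.6 to 1767 CPM, did overlap the tumors. How many of all genes are separate between organoids and tumors, as Scarb1 is, was not counted. The test of Anxa2 compared oligonucleotide organoids with tumors. Its log2 fold change was 1.00 ± 0.19, with an adjusted p of 0.000122. M6pr (chr6:122308720-122317680, plus strand), the cation-dependent mannose 6-phosphate receptor that carries lysosomal enzymes between Golgi and endosomes, was at 212 to 269 CPM in oligonucleotide organoids, against 191 to 288.5 CPM in tumors. Its difference was -0.08 ± 0.07 on the log2 scale and did not pass the test (adjusted p 0.385). A processed copy of M6pr, M6pr-ps, matched it at 97.3% over 488 bases but held only 1.16 to 3.42% as many reads.

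Ap2m1 (chr16:20535478-20544909, plus strand), the AP2 adaptor subunit that binds receptor tails in clathrin-coated pits, was at 61.6 to 128.9 CPM in oligonucleotide organoids, against 64.9 to 83.2 CPM in tumors. It did not pass the test without the block (0.26 ± 0.13, adjusted p 0.0933). With the blocks it was called, at 0.21 ± 0.06 with an adjusted p of 0.00739, and without scASO organoid 4 it was also called, at 0.31 with an adjusted p of 0.0338, as it was by limma's voom, at 0.45 with an adjusted p of 0.000743. Its values are uncertain, because the pseudogene Gm13509 matches it at 99.7% over 1308 bases and held from 48.2 to 200% as many reads. The summed CPM of both was 168 to 249.5 in the 16 organoids, against 121 to 198 in the 10 tumors, and Gm13509 on its own did not pass the test (0.25 ± 0.12, adjusted p 0.0905).

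Rnaseh1 (chr12:28649602-28659589, plus strand) varied little between libraries, with a coefficient of variation of 8.17% over the 16 organoids and 6.33% over the 10 tumors. It was at 16.45, 17.0, 15.1 and 17.0 CPM in ASO1 organoids, at 15.7, 17.0, 16.2 and 15.55 CPM in ASO2 organoids, at 16.4, 19.5, 13.7 and 14.2 CPM in scASO organoids and at 15.8, 16.5, 16.05 and 17.0 CPM in Mock organoids. In tumors it was at 18.3, 21.6 and 19.5 CPM with ASO1, at 21.6, 20.15, 20.9 and 21.3 CPM with ASO2, and at 19.3, 22.5 and 21.4 CPM with scASO. The library labelled scASO organoid 2, which goes against its label, was the only organoid within the range of the tumors. Rnaseh1 fell by 0.35 ± 0.07 on the log2 scale in organoids, or to 0.784 times the tumor level, with an adjusted p of 0.000350. With the blocks and without both libraries that go against their labels it fell by 0.38, with an adjusted p of 0.000166.

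Ncl (chr1:86344719-86359400, minus strand) encodes nucleolin, an RNA-binding protein of the nucleolus that is also found at the cell surface, where it binds some oligonucleotides. It was at 673 to 1074 CPM in oligonucleotide organoids, against 440.5 to 1284 CPM in tumors. The difference did not pass the test (0.23 ± 0.15, adjusted p 0.197). It did without tumor ASO1 number 2, the highest tumor at 1284 CPM, with a value of 0.37 and an adjusted p of 0.02205, and with limma's voom over all libraries, at 0.31 with an adjusted p of 0.0151.

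**Figure D3:**
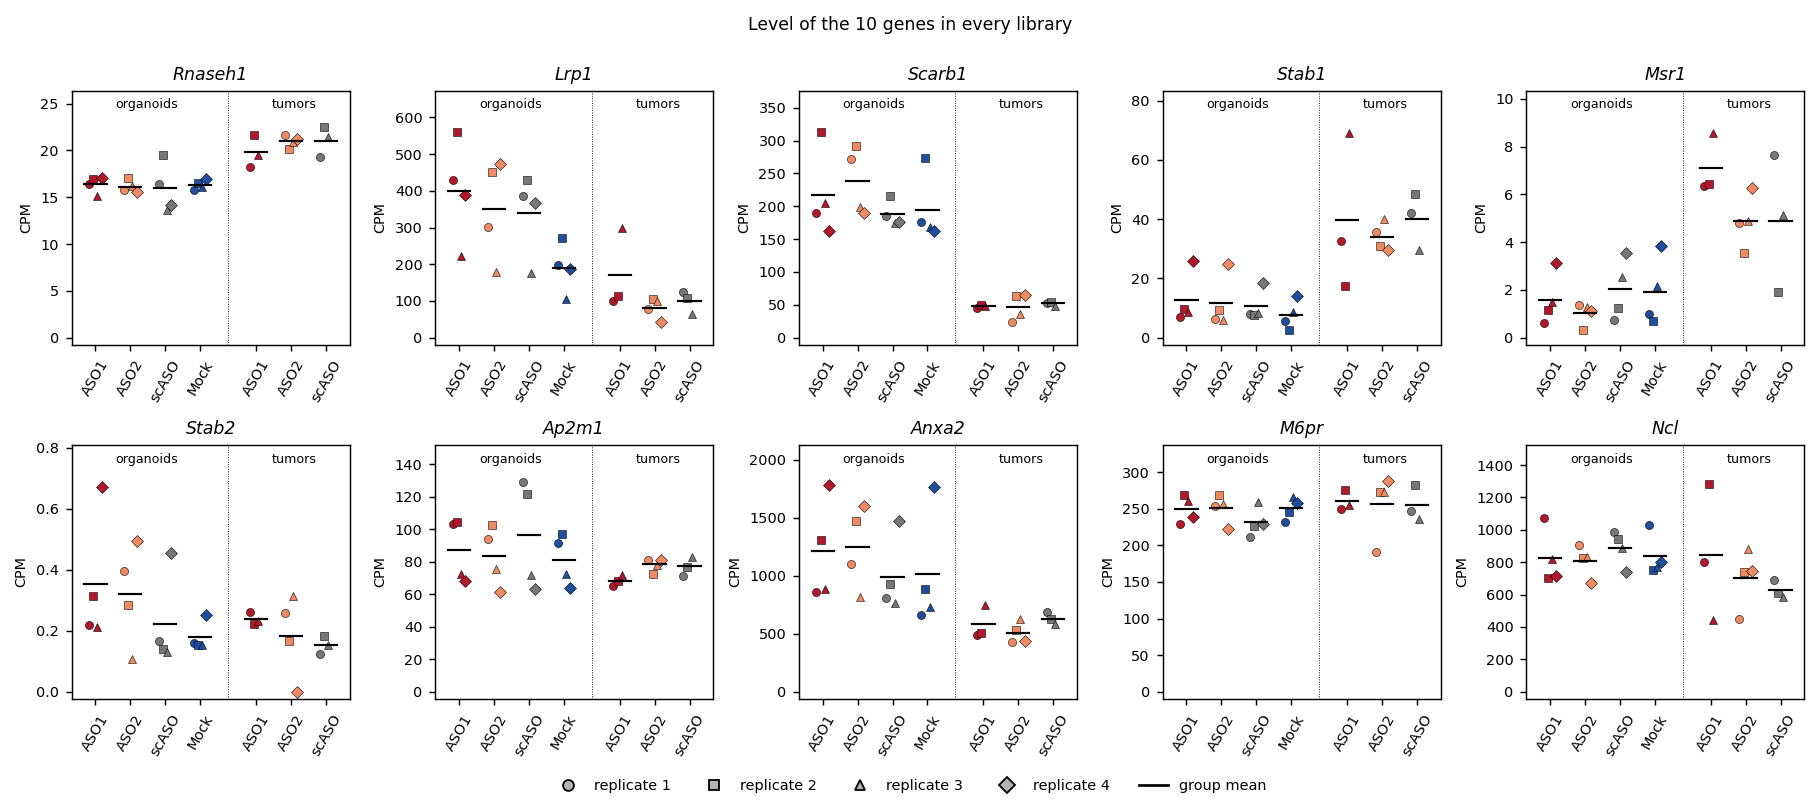
CPM of each of the 10 genes in every library, organoid groups to the left of tumor groups; points are libraries and bars are group means. All 16 organoids lie above all 10 tumors for Scarb1, Rnaseh1 lies between 13.7 and 22.5 CPM throughout, and Stab2 stays under 1 CPM.

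Related genes of the same steps were read from lists by known role, against the 58.3% of all genes called in this comparison. Calls in either direction covered 15 of 22 endosome and retrograde trafficking genes, 13 of 18 other uptake receptor genes and 10 of 20 RNase H and phosphorothioate-binding genes, shares not far from that background. They also covered 10 of 13 clathrin and adaptor genes. For the counts by direction that follow, 28.5% of all genes were called higher and 29.8% lower. Of 13 clathrin and adaptor genes tested, 10 were higher in organoids than in tumors and none was lower, with a median log2 fold change of 0.62 against -0.02 over all genes. Clathrin heavy chain Cltc rose by 0.99 ± 0.11, the clathrin assembly gene Picalm by 0.60 ± 0.08 and the adaptor subunit gene Ap2a1 by 0.67 ± 0.11. Of 22 endosome and retrograde trafficking genes, 13 were higher and 2 lower, with a median of 0.34. Igf2r, the other mannose 6-phosphate receptor, was higher by 1.96 ± 0.17, with an adjusted p of 5.09e-09, while M6pr was not called. Annexin genes Anxa1 and Anxa11 were higher by 1.78 ± 0.26 and 0.99 ± 0.12, as Anxa2 was. Of 18 other uptake receptor genes, 4 were higher and 9 lower, with a median of -0.42. Scarf1, an endothelial scavenger receptor, was lower, at -2.39 ± 0.28. Of 20 genes for other RNase H subunits and proteins that bind phosphorothioates, 7 were higher and 3 lower, with a median of 0.14. Rnaseh2b, a subunit of RNase H2, was lower, at -0.78 ± 0.11, as Rnaseh1 was, and the chaperone gene Hsp90ab1 was higher, at 0.99 ± 0.15.

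Whether contact with an oligonucleotide went with the level of these genes was asked in organoids alone, where Mock libraries exist. Lrp1 stood out: within every organoid number, as labelled, it was higher with ASO1, with ASO2 and with scASO than in Mock. It was at 430, 559, 222 and 390 CPM in ASO1 organoids 1 to 4, at 303, 452, 178 and 473 CPM in ASO2 organoids, at 385, 431, 175.7 and 366 CPM in scASO organoids and at 198, 270.5, 104 and 187 CPM in Mock organoids. The ranges of oligonucleotide and Mock organoids overlapped, since the number 3 organoids were low in each group, yet the 12 ratios to the Mock library of the same number ran from 1.53 to 2.52, with a median of 1.95. These ratios share 4 Mock libraries, 3 ratios to each, so they are not 12 separate comparisons. The lowest ratios, 1.53 for ASO2 organoid 1 and 1.59 for scASO organoid 2, belong to the libraries that go against their labels. Set against the Mock library of the other's number, they were at 303 against 270.5 CPM and 431 against 198 CPM. Group means, as labelled, were 400 ± 139 CPM with ASO1, 351 ± 138 CPM with ASO2, 339 ± 112 CPM with scASO and 190 ± 68.1 CPM in Mock (SD, n = 4 each).

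The fit without the block did not call Lrp1 (log2 fold change 0.92 ± 0.32, p 0.0114, adjusted p 1.00), and called none of the 10 genes and 0% of 17126 genes, with 401 at an unadjusted p under 0.05 and 6 called by DESeq2. With organoid number as a block, the log2 fold change was again 0.92, with an SE of 0.10 and an adjusted p of 0.000979, a 1.89-fold higher level. Lrp1 ranked 6 of 17126 genes by p in that fit, which called 566 genes, or 3.30% (2.38% higher), and Lrp1 alone of the 10. Leaving out both libraries that go against their labels as well gave 0.96 with an adjusted p of 0.000269, where 9.04% of 17325 genes were called, again with Lrp1 alone among the 10. Against the same 4 Mock libraries, scASO on its own gave a blocked log2 fold change of Lrp1 of 0.83 ± 0.11, with an adjusted p of 0.0133 and rank 8, where 0.747% of genes were called. Without the block that value was 0.83 ± 0.37 with an adjusted p of 1, 0% of genes were called, and 1 was called by DESeq2.

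**Figure D4:**
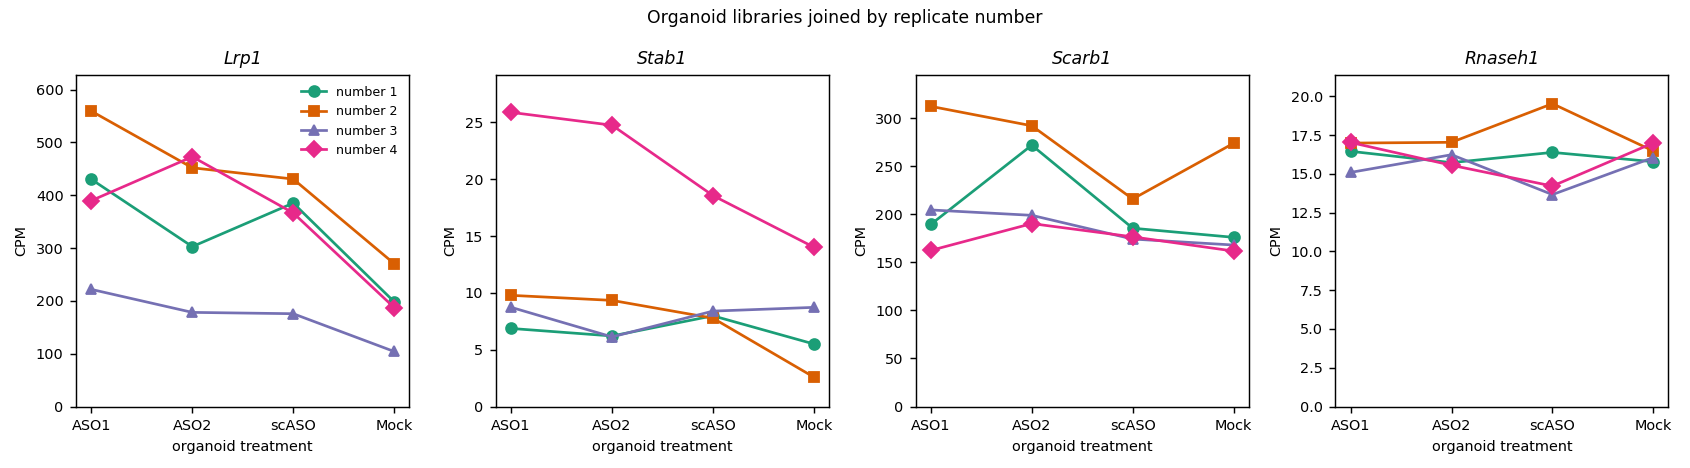
CPM of Lrp1, Stab1, Scarb1 and Rnaseh1 in ASO1, ASO2, scASO and Mock organoids, with a line for each organoid number. For Lrp1 every line is lowest at Mock, at 104 to 270.5 CPM, while the lines for Stab1 are set apart by number 4 and those for Rnaseh1 stay between 13.7 and 19.5 CPM.

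For the other 9 genes no difference between oligonucleotide and Mock organoids passed either test. The blocked log2 fold changes of the receptor genes were 0.56 ± 0.23 for Stab1 (adjusted p 0.211), 0.59 ± 0.30 for Stab2, 0.13 ± 0.09 for Scarb1 and -0.27 ± 0.31 for Msr1. Stab1 exceeded its own Mock library in 10 of 12 organoids, at 0.702 to 3.78 times it, and Scarb1 in 11 of 12, at 0.788 to 1.545 times it. Both ends of the Scarb1 range, scASO organoid 2 and ASO2 organoid 1, are the libraries that go against their labels. The other Scarb1 ratios ran from 1.005 to 1.217. Values near 0 with small errors were seen for Rnaseh1, at -0.03 ± 0.08, for Ncl, at -0.01 ± 0.08, and for M6pr, at -0.05 ± 0.06. Ap2m1 was at 0.10 ± 0.07 and Anxa2 at 0.22 ± 0.11. In 7 of 12 oligonucleotide organoids Rnaseh1 was above its own Mock library, at 0.8365 to 1.185 times it. The highest of these ratios was in scASO organoid 2, which goes against its label.

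Cell type markers also differed in the same blocked comparison, and they are given beside Lrp1 because fibroblasts and macrophages are known to express it. That comparison called 2.38% of all 17126 genes higher and 0.923% lower. Of 7 fibroblast markers, 1 was called higher, Col1a2 at 0.73 ± 0.17 (adjusted p 0.0394), and all 7 estimates were above 0, with a median of 0.59. The fibroblast sum exceeded its own Mock library in 11 of 12 organoids, at 0.906 to 2.295 times it, and it was 52.6 to 299 CPM in oligonucleotide organoids, against 58.05 to 130.3 CPM in Mock organoids. The exception was ASO1 number 3, with a sum of 52.6 CPM, against 58.05 CPM in Mock number 3. Of 6 epithelial markers, the basal keratins Krt14 and Krt5 were called higher, at 0.69 ± 0.11 and 0.65 ± 0.11. Of 5 lymphatic markers, Pdpn and Flt4 were called higher, at 0.70 ± 0.12 and 1.55 ± 0.34. Of 12 macrophage markers, Cd14 was called higher, at 0.39 ± 0.08, and Ptprc lower, at -0.86 ± 0.18, with 3 of the 12 estimates above 0. The sum of all 12 exceeded its own Mock library in 10 of 12 organoids, at 0.875 to 1.475 times it, whereas the sum of Ptprc, Csf1r and Adgre1 did so in 4 of 12, at 0.356 to 2.86 times it. Sums of other lists were also above their own Mock library: lymphatic and sinusoidal markers in 12 of 12, with a median ratio of 1.525, mammary epithelial markers in 12 of 12, with a median of 1.23, and endothelial markers in 11 of 12, with a median of 1.24. The adipocyte sum was above in 12 of 12, at 1.003 to 6.98 times it, with a median of 2.06, and the 1 adipocyte marker tested was called higher. Single genes made up most of some sums in oligonucleotide organoids. Medians were 94.9 CPM for Pdpn against 111.2 for the lymphatic sum, and 299.9 for Cd14 against 421.5 for the macrophage sum. Fabp4 was at 3.55 CPM against 3.56 for the adipocyte sum. Hepatocyte and lymphocyte sums, at medians of 0.0876 and 0.174 CPM, were also above in 10 of 12 each. The part of these cell types in the Lrp1 difference was not tested.

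The other uptake and cleavage genes did not follow Lrp1 past the threshold. In the blocked comparison, which called 3.3% of all genes, 0 of 13 clathrin and adaptor genes were called. All 13 estimates were above 0 all the same, with a median of 0.08 against -0.01 over all genes. Among 16 other uptake receptor genes 0 were called, and among those with the smallest p were Cxcl16, at 0.63 ± 0.16 (adjusted p 0.0516), and the collectin Colec12, at 0.45 ± 0.14 (adjusted p 0.0929). Of 22 endosome and retrograde trafficking genes, 1 was called, the secretory GTPase gene Rab27a, which was lower at -0.53 ± 0.12 (adjusted p 0.0285). Of 20 other RNase H and phosphorothioate-binding genes 0 were called.

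None of the 10 genes was called between organoids given a Malat1 ASO and those given scASO. Without the block 0 of 10 and 0% of 17126 genes were called (182 at an unadjusted p under 0.05, 0 by DESeq2), and with the block 0 as well (3157 at an unadjusted p under 0.05). The targeted Malat1 itself, at -1.72 ± 0.57 with the block, had an adjusted p of 0.202, in a comparison that includes both libraries going against their labels. With the block, Lrp1 was at 0.13 ± 0.10, Rnaseh1 at 0.03 ± 0.08, Stab1 at 0.08 ± 0.23 and M6pr at 0.10 ± 0.07. The estimates farthest from 0 belonged to genes with few reads, Stab2 at 0.63 ± 0.30 and Msr1 at -0.59 ± 0.33. Those with the smallest p were Anxa2, at 0.30 ± 0.12 (adjusted p 0.236), and Scarb1, at 0.24 ± 0.10 (adjusted p 0.241). For ASO1 alone and for ASO2 alone against scASO, edgeR called 0 members and 0% of genes (44 and 287 at an unadjusted p under 0.05), as did DESeq2. Limma's voom with quality weights lets libraries that stand apart count for less. For ASO2 alone, where both libraries going against their labels are included, it called 23.2% of genes, 11.5% higher and 11.7% lower. It called 4 members, all higher: Stab2 at 0.98, Scarb1 at 0.46, Anxa2 at 0.55 and M6pr at 0.23. The edgeR fit with the block called none of these 4.

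Tumors gave the same count. Of the 9 genes that passed the filter on low counts (Stab2 did not), 0 were called between tumors given a Malat1 ASO and those given scASO, and 0% of 17354 genes were (1017 at an unadjusted p under 0.05, 20 called by DESeq2). Malat1 was at -1.14 ± 0.32 on the log2 scale, with an adjusted p of 0.827. Rnaseh1 was at -0.03 ± 0.14, M6pr at 0.03 ± 0.15 and Ap2m1 at -0.06 ± 0.11. The receptor genes had wider errors: Lrp1 0.27 ± 0.40, Stab1 -0.11 ± 0.35, Msr1 0.27 ± 0.39 and Scarb1 -0.14 ± 0.26. Anxa2 was at -0.20 ± 0.20 and Ncl at 0.30 ± 0.30. The clathrin, endosome, other receptor and RNase H lists had 0 calls among 13, 22, 17 and 20 genes tested. For ASO1 alone 0.00576% of genes and 0 members were called (112 genes by DESeq2), and for ASO2 alone 0% of genes and 0 members (892 genes at an unadjusted p under 0.05, 45 by DESeq2).

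Single tumors stood apart from the rest for several members. Lrp1 was at 100.6, 112.8 and 299 CPM in ASO1 tumors and at 77.9, 105.9, 100.4 and 41.6 CPM in ASO2 tumors, against 123.1, 108.7 and 65.7 CPM in scASO tumors. Stab1 was at 32.6, 17.45 and 69.2 CPM in ASO1 tumors and at 35.8, 30.8, 40.1 and 29.6 CPM in ASO2 tumors, against 42.0, 48.65 and 29.6 CPM in scASO tumors. ASO1 number 3 was the highest of the 10 tumors for Lrp1, Stab1, Msr1 and Anxa2 and the lowest for Ncl, at 440.5 CPM. It was also the highest tumor for the sum of Ptprc, Csf1r and Adgre1, at 181.6 CPM, and for the endothelial sum, at 218 CPM. Without it the Lrp1 value was -0.09, against 0.27 with it, and the Stab1 value was -0.46, against -0.11 with it. Scarb1 was at 45.3, 49.15 and 48.2 CPM in ASO1 tumors and at 23.1, 62.9, 36.7 and 64.4 CPM in ASO2 tumors, against 53.2, 54.7 and 48.9 CPM in scASO tumors. ASO2 number 1, the lowest for Scarb1 and for M6pr at 191 CPM, had a skeletal muscle marker sum of 1238 CPM and a fibroblast sum of 2349 CPM. The part of these cells in the values was not tested.

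The difference between the organoid and the tumor response to the Malat1 ASOs was tested directly and called 0 of the 10 genes and 0% of 18695 genes (831 at an unadjusted p under 0.05, 2 called by DESeq2). With the blocks it called 0 of the 10 genes and 0.305% of all genes.

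**Figure D5:**
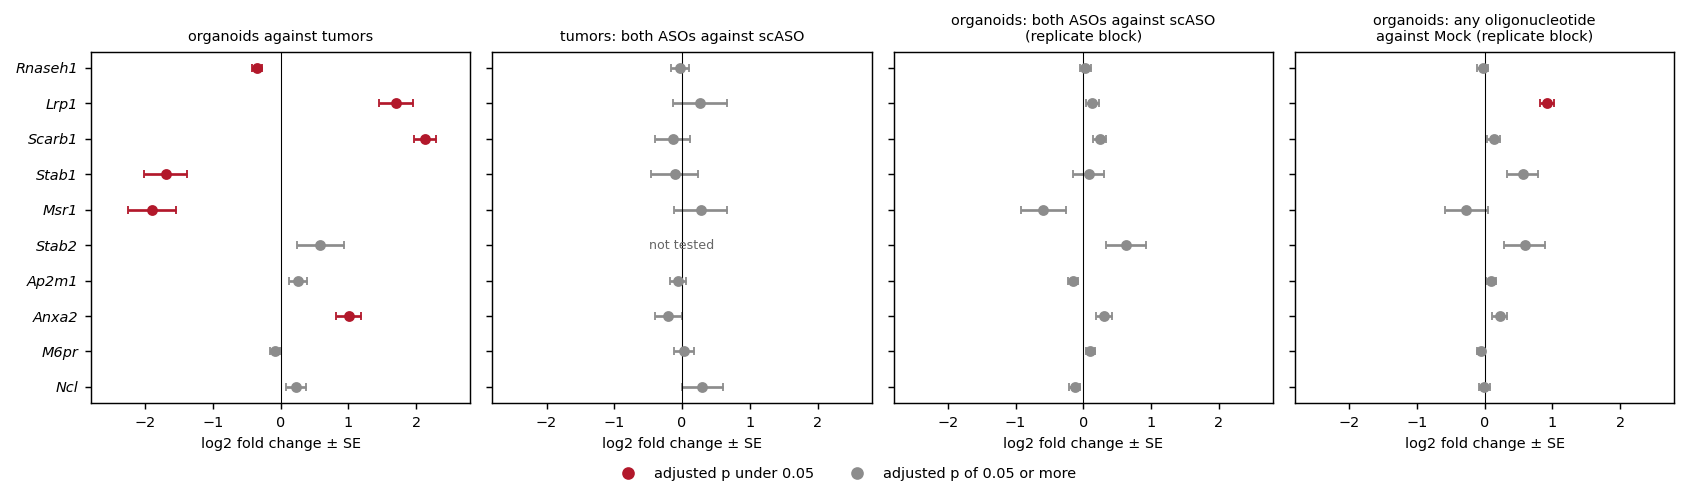
Log2 fold change with its SE for each of the 10 genes in 4 comparisons: organoids against tumors, both Malat1 ASOs against scASO in tumors, the same in organoids with the number block, and any oligonucleotide against Mock in organoids with the number block. Red marks an adjusted p under 0.05, which 6 genes reach for organoids against tumors and Lrp1 alone for oligonucleotide against Mock.

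The members also differed in where their variation lay. Over the 16 organoids, the organoid number held 85.7% of the variance of log2 CPM for Ap2m1, 79.8% for Anxa2 and 70.9% for Stab1, against 5.755, 10.5 and 12.2% for treatment. Lrp1 had the largest treatment share of the 10 genes, at 39.2%, beside 57.05% for number. Rnaseh1 had the smallest shares of both, 31.0% for number and 4.27% for treatment. Such shares were not computed over all genes, and some share falls to number and to treatment by chance alone. Organoids of the same number also deviated together over all genes (median correlation 0.817). High shares for number are therefore not shown to be particular to these members. Within number 4, Stab1 was at 25.9 CPM with ASO1, 24.75 CPM with ASO2, 18.6 CPM with scASO and 14.02 CPM in Mock, above each of the other 12 organoids, and Anxa2 was at 1782, 1600, 1470 and 1767 CPM. Ap2m1 was highest in organoids 1 and 2, at 91.9 to 128.9 CPM, and lower in organoids 3 and 4, at 61.6 to 75.8 CPM. The sum of Ap2m1 and Gm13509 was 199 to 246.6 CPM in number 1, 205 to 249.5 CPM in number 2, 206.5 to 227 CPM in number 3 and 168 to 190.5 CPM in number 4.

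The genes whose pattern was most like that of a member were sought by Pearson's r of log2 CPM, as a description over libraries that share their depth and treatment. Over the 10 tumors, 13503 genes whose log2 CPM averaged 1 or more were searched, and the best match of each member lay at 0.883 to 0.987. Stab1 was most like Csf1r (r = 0.974), the receptor that maintains macrophages, closely followed by Tgfb1i1 (0.964) and Ppfia4 (0.963). Tumor ASO1 number 3 was highest for Stab1 and for the sum of Ptprc, Csf1r and Adgre1, and r was not computed without it. Msr1 was most like Gata2 (0.883), Ncl like the threonyl-tRNA synthetase gene Tars (0.987), Rnaseh1 like Cables1 (0.921) and Lrp1 like 1500015O10Rik (0.973). Over the 16 organoids, with the mean of each number removed and 12721 genes compared (12722 for Msr1), Lrp1 was most like Nav2 (0.970), the endothelin-converting enzyme gene Ece1 (0.960) and the desmosome gene Dsp (0.955). Msr1 was most like the Fc receptor gene Fcgr3 (0.902), Stab1 like Arrb2 (0.947) and Anxa2 like S100a14 (0.979).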

How the data were processed

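The deposited tables hold raw counts of reads per gene, 1 table per library. The submitters' processing notes name STAR, HTSeq, CASAVA, FastQC and DESeq2, and the mm9 build, without versions, options or a strand setting. Lines for unassigned reads (5 per table) entered neither library sizes nor tests. Set against reads in genes, reads in no feature came to 8.34 to 14.6% in organoids and 11.1 to 24.55% in tumors, ambiguous reads to 4.44 to 8.70% in organoids and 3.90 to 4.65% in tumors, and multiply aligned reads to 21.2 to 32.7% in organoids and 24.1 to 43.95% in tumors. Gene IDs were matched to GENCODE M21, so positions are those of GRCm38 (32620 of 37310 IDs matched a symbol).

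The 10 genes, the related gene lists and the marker lists were chosen with earlier results of these data known. All 10 genes were named, and from each related list the most abundant gene and up to 3 of lowest p. One gene that this rule names is not reported here. Tumors and organoids were fitted separately, and together for contrasts between them, with edgeR 4.0.16 in R 4.3.3 (quasi-likelihood test, TMM, minimum count 10, minimum total 15, Benjamini-Hochberg threshold 0.05). A standard error is the log2 fold change over the root of its F statistic. CPM used TMM-scaled totals of all 26 libraries, and log2 CPM a prior count of 2. DESeq2 1.42.0 and limma 3.58.1 were alternatives.

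The pairing check correlated deviations from group means. All 24 organoid pairs of the same number were above 0.1 (0.469 to 0.933, median 0.817, against -0.322 for other numbers), so the number pairs organoids, and the block is given beside results. It was 2 of 9 pairs in tumors (median -0.0831). No libraries of a group agreed within sampling noise (chi-square per degree of freedom 15 to 447 over 36 pairs). The lowest were scASO organoids 1 and 2, at 15, and ASO2 organoids 1 and 2, at 43.4. For Mock organoids 1 and 2 it was 108, and for ASO1 organoids 1 and 2 it was 167. Both low pairs hold a library that goes against its label. Whether those libraries carry the right number was not tested. The block, the ratios to Mock and the shares by number keep them as labelled.

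On simulated counts, the test recovered 26 of 100 genes with a 2-fold change, and 68 of 100 with a 4-fold change, for both ASOs in tumors (17354 genes), 23 and 83 for any oligonucleotide against Mock without the block (17126 genes), and 57 and 90 for organoids against tumors (18695 genes). Copies were sought with BLAST 2.17.0 in the transcripts (identity of at least 90% over at least 100 bases). Exons of Stab1 overlap Nt5dc2 by 112 bases, Stab2 overlaps the antisense gene Gm16268 by 141, Anxa2 the antisense gene Gm16144 by 98 and Ncl the small RNA genes Snora75 and Gm24148 by 133 and 56, and reads there may be split between them. Ncl also matches Gm17837 at 93.1% over 654 bases.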

Additional observations from a re-analysis of the deposited data

Results flagged for a closer look

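In 7 of 50 groups of 4 libraries, 1 library stood farther from the other 3 than Dixon's limit allows, a gap of over 0.829 of the group's range, which chance gives in about 1 of 20 groups. Of these, 4 concerned organoid number 4 and the stabilins. Stab1 was at 25.88 CPM in ASO1 organoid 4, against 6.87 to 9.783 CPM in the other ASO1 organoids, and at 18.56 CPM in scASO organoid 4, against 7.774 to 8.396 CPM in the other scASO organoids. Stab2 was at 0.4557 CPM in scASO organoid 4, against 0.1305 to 0.1657 CPM in the other scASO organoids, and at 0.251 CPM in Mock organoid 4, against 0.1522 to 0.1602 CPM in the other Mock organoids. Number 4 was the highest organoid of its treatment for Stab1 in each of the 4 treatments, so the same organoid number recurs where a group of 4 was not flagged. Number 4 was also highest in CPM for Stab2 in each treatment, but on only 6 to 29 reads. The Stab2 values rest on 11 reads in scASO organoid 4, against 3 to 6 in the other scASO organoids. Mock organoid 4 held 6 reads, and the other Mock organoids 5 or 6, so its higher CPM comes from its smaller library and lies within counting error.

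The other 3 were single values. Scarb1 was at 274 CPM in Mock organoid 2, against 161.8 to 176.1 CPM in the other Mock organoids. Ncl was at 1032 CPM in Mock organoid 1, against 752.1 to 798.8 CPM in the other Mock organoids. M6pr was at 191.1 CPM in ASO2 tumor 1, against 272.9 to 288.5 CPM in the other ASO2 tumors.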

How the results depend on the processing

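Of 871 recomputed values for 40 member results, 834 kept their direction and side of the threshold, 12 crossed it upward and 25 changed sign, none of these with either value called. The replicate block, which follows the pairing of the organoids, moved the genes called to 566 for any oligonucleotide against Mock and 128 for scASO against Mock (1 member each, Lrp1, at 0.92 and 0.83), to 57 for the difference in response and to 0 for ASO1 tumors. With the block and without both libraries going against their labels, an alternative chosen after seeing the data, the counts were 1566 and 308 (1 member each), 15 for the difference in response, and 4, 1 and 3 for both ASOs, ASO1 and ASO2 against scASO in organoids. DESeq2 called 20, 112 and 45 genes for both ASOs, ASO1 and ASO2 in tumors, 6 for any oligonucleotide and 1 for scASO against Mock, and 2 for the difference in response. Limma's voom with quality weights called 1029 and 3974 genes (4 members in the second) for both ASOs and ASO2 against scASO in organoids, and 280 for the difference in response, and 8 members for organoids against tumors (Ap2m1 and Ncl added). ASO1 tumors had 3 genes without a filter and 0 with only the compared groups in the fit. The causes were not tested.

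Signs changed under the block for M6pr with both ASOs in tumors (-9.68e-06), and under voom for Rnaseh1 (-0.10) and Lrp1 (-0.026) with both ASOs in organoids and for Rnaseh1 (0.032) and Ncl (0.037) for any oligonucleotide. Leaving out 1 library at a time gave, with both ASOs in tumors, -0.086 to 0.0205 for Rnaseh1, -0.46 to 0.067 for Stab1, -0.089 to 0.46 for Lrp1, -0.11 to 0.76 for Msr1 and -0.029 to 0.11 for M6pr. With both ASOs in organoids it gave -0.040 to 0.12 for Rnaseh1, -0.16 to 0.62 for Stab1 and -0.076 to 0.26 for Lrp1. For any oligonucleotide it gave -0.057 to 0.0047 for Rnaseh1, -0.68 to 0.21 for Msr1, -0.0012 to 0.59 for Anxa2, -0.066 to 0.10 for Ncl and 0.73 to 1.13 for Lrp1. It gave 10405 to 11066 genes and 6 to 7 members for organoids against tumors, and 0 to 1 gene for ASO1 tumors, ASO2 tumors and the difference in response. Stab2 and Msr1 are limited by depth, at 0 to 29 reads for Stab2.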
